A study of Mus musculus with 6 samples.

Results

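The genes described here encode the subunits of the voltage-gated sodium channels, the voltage-gated calcium channels and the HCN channels of mouse. Earlier results of these data were known when these genes were chosen. The choice went by symbol, matching names of the Scn alpha and beta subunits, the Cacna1, Cacna2d and Cacnb subunits and the Hcn genes. This gave 36 of the 56923 genes in the tables: 10 sodium channel alpha subunits, 4 sodium channel beta subunits, 10 calcium channel alpha-1 subunits, 4 alpha-2-delta subunits, 4 calcium channel beta subunits and 4 HCN genes. RNA came from the prefrontal cortex of mice labelled Pla2g4e KO (3 libraries) and wild type (WT, 3 libraries). In the study, the knockout is the constitutive Pla2g4e tm2a allele, in which a LacZ trapping cassette sits at exon 2 of the gene for a calcium-dependent N-acyltransferase. The labels give no strain, age, sex or litter for these samples, and do not say that each library came from its own animal, so every p-value below measures only the spread between these libraries.

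Each voltage-gated sodium or calcium channel is built around 1 large pore-forming protein, called alpha in sodium channels and alpha-1 in calcium channels, which senses the membrane voltage and sets the type of current. Smaller subunits bind it and set how much of it reaches the membrane and how fast it opens and closes. HCN channels open on hyperpolarization and carry the mixed cation current known as Ih. In cortical neurons sodium channels crowd the axon initial segment, where action potentials start, and it is there that the study placed part of the Pla2g4e protein. The comparison of KO with WT therefore asks whether the loss of Pla2g4e goes with another supply or another mix of channel subunit messages.

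The 6 libraries held between 11792463 and 14594230 fragments (read pairs) assigned to genes, and channel genes took between 0.481% and 0.517% of them. Fragments carry no molecular identifiers. Pla2g4e itself was counted in all libraries, at 5.95, 8.12 and 7.97 CPM (fragments of a gene per 1000000 in the library, with TMM scaling factors) in KO replicates 1 to 3 and at 7.84, 11.3 and 13.2 CPM in the libraries labelled WT replicates 1 to 3. The groups overlapped, since the library labelled WT replicate 1 lay among the KO libraries, and the log2 fold change was -0.55 (SE 0.21, limma-voom unadjusted p = 0.0205, adjusted p = 0.635). Pla2g4e was lower in KO in all 15 alternatives run, with an unadjusted p under 0.05 in 12 of them and over it when KO replicate 1 or either of WT replicates 2 and 3 was left out. The tables give 1 count per gene, so which exons these fragments came from was not analysed here. Xist reached 1387 CPM in KO replicate 1 and 969 CPM in WT replicate 1, with 0.246 CPM or less in the other libraries, so each group mixes both kinds. KO replicate 1 also stood apart in markers of the olfactory bulb, whose summed level was 221 CPM there and 12.5 to 55.3 CPM elsewhere.

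No channel gene passed the adjusted threshold of 0.05 in the comparison of KO with WT. Of the 36 genes, 34 had enough fragments to be tested, and 0 of 34 passed in limma-voom, as did 0% of the 19084 genes tested. The edgeR quasi-likelihood test and DESeq2 also called 0 channel genes. At an unadjusted p under 0.05 there were 7 channel genes (20.6% of 34), against 7.82% of all genes tested, with edgeR giving 7 and DESeq2 giving 6. Higher in KO were 6 of them (17.6%), against 4.38% of all genes, and Cacna1c, Cacna1d, Cacna1h, Cacna1i and Cacna1s were among them. In bulk tissue more RNA per cell and more cells of a type that makes it cannot be told apart. Lower in KO was 1 gene (2.94%, against 3.44% of all genes). The same 6 genes had every KO library above every WT library, which was the case for 6.72% of all genes tested, while 0 channel genes had every KO library below, against 6.29%. Without KO replicate 1 the count at an unadjusted p under 0.05 was 3, against 4.44% of all genes tested without that library, and without WT replicate 2 it was 4, against 4.13%. In the direction of the difference, 22 of the 34 genes had the higher mean in KO and 12 in WT, with a median log2 fold change of 0.04, beside 0.01 over all genes tested. Of the 19084 genes tested, 9899 were higher in KO and 9185 lower.

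**Figure D1:**
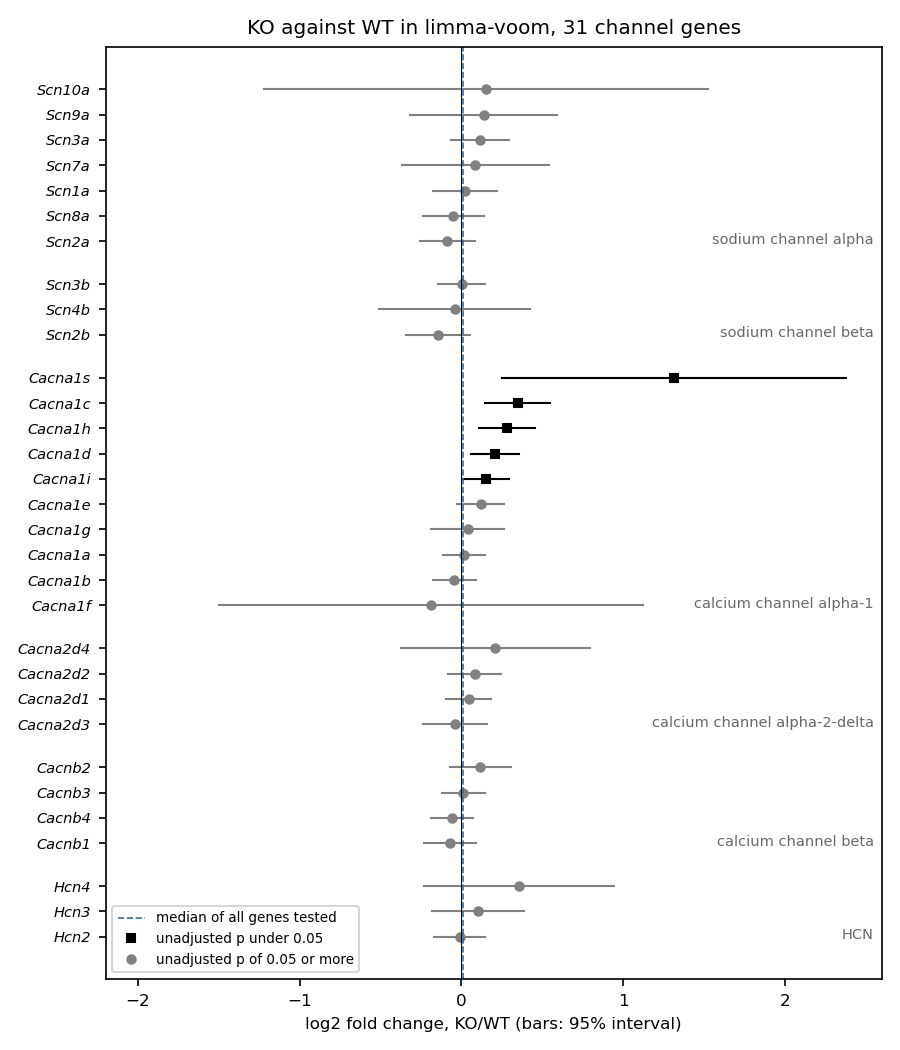
Log2 fold change, KO/WT, of 31 of the channel genes tested, grouped by class, with the 95% interval of the limma-voom fit (horizontal axis, log2 scale) and a dashed line at the median of all genes tested. Black squares mark the genes with an unadjusted p under 0.05, which here are 5 calcium channel alpha-1 genes to the right of 0.

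Transcript levels of different genes were compared per length, as CPM per kb of exon (the length is that of all annotated exons of a gene together, so that a gene with long alternative exons is understated). On this scale the mean over 6 libraries of the genes given here spanned from 70.7 for Cacnb3 to 0.00380 for Scn4a, the skeletal muscle sodium channel. Their order at the top was Cacnb3, Scn2b, Hcn2, Cacnb1, Cacnb4, and each of these was above the next in 6 of 6 libraries. Below them Scn2a and Scn8a stood above the next gene in 5 of 6 libraries. Cacna1g, Cacna1b and Cacna1e (19.3, 19.1 and 18.9 CPM per kb) did not differ beyond their spread, with Cacna1g above Cacna1b in 3 libraries and Cacna1b above Cacna1e in 2. Scn2a, the highest pore-forming subunit of a sodium or calcium channel per length, came after Scn2b, Hcn2 and 3 of the 4 Cacnb genes. Without division by length, Cacna1e (mean 478 CPM) and Scn8a (437 CPM) were above Scn2a (369 CPM).

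**Figure D2:**
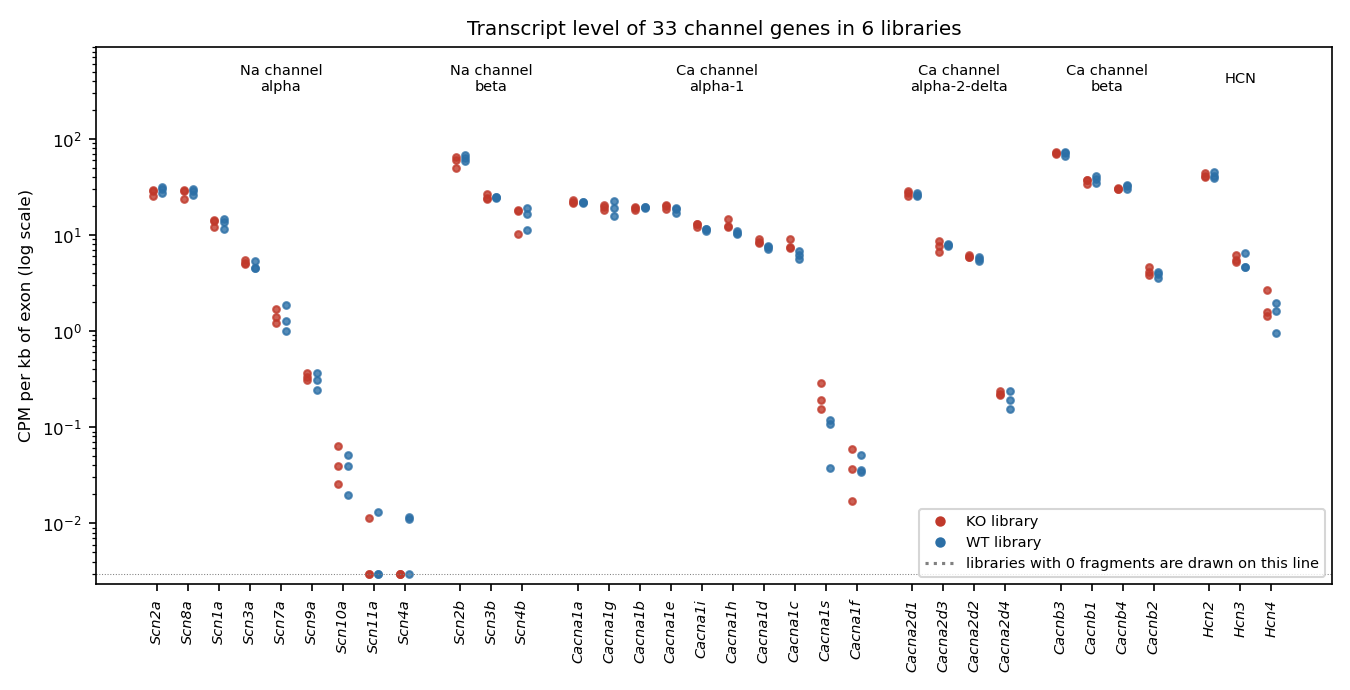
Level of 33 channel genes as CPM per kb of exon (vertical log axis), with 1 point per library, KO in red on the left and WT in blue on the right of each gene, ordered within its class by mean. Cacnb3 stands highest at 66.9 to 73.2 CPM per kb, and the muscle and sensory neuron channels (Scn4a, Scn10a, Scn11a, Cacna1s) lie below 1 CPM per kb.

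Sodium channel alpha subunits are close relatives of one another, which bears on how their fragments could be counted. Over the whole coding sequence (the longest complete one of each gene in GENCODE M21, an annotation of GRCm38) the longest identical run was 188 bases between Scn1a and Scn2a, 184 between Scn3a and Scn9a and 143 between Scn3a and either of Scn1a and Scn2a. A fragment that lies wholly in such a run has more than 1 mapping place and would not have been counted, and how many there were was not analysed here. Scn3a, Scn2a, Scn1a, Scn9a and Scn7a also lie in this order on chromosome 2, from chr2:65287462-65397971 (Scn3a) to chr2:66503769-66615258 (Scn7a) in GRCm39.

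Scn2a, which encodes Nav1.2 of excitatory neurons, and Scn8a, which encodes Nav1.6 of the distal initial segment and nodes, were the main alpha messages. Scn2a measured 323, 379 and 372 CPM in KO replicates 1 to 3 and 348, 402 and 390 CPM in WT replicates 1 to 3. The groups overlapped, and replicate 1 was the lowest library of each (log2 fold change -0.09, 95% interval -0.26 to 0.08, and -0.013 without KO replicate 1). Scn8a was at 430 ± 49.3 (SD, n = 3, KO) and 444 ± 32.6 CPM (WT), with a log2 fold change of -0.05. Scn1a, the Nav1.1 of parvalbumin interneurons, was at 150 ± 12.2 and 148 ± 17.3 CPM. Scn3a, the mainly embryonic Nav1.3, was at 66.1 ± 2.97 and 61.3 ± 6.20 CPM. None of these 4 genes had an unadjusted p under 0.05, and the interval of their log2 fold changes reached at most 0.30 in either direction. Scn7a was at 10.5 ± 1.84 and 10.2 ± 3.29 CPM and Scn9a, the Nav1.7 of nociceptors, at 4.28 ± 0.393 and 3.91 ± 0.797 CPM.

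The sensory neuron channels Scn10a and Scn11a and the muscle channel Scn4a were near the floor of detection. Scn10a had 2 to 6 fragments per library, and Scn4a and Scn11a had 0 or 1 and were not tested.

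Sodium channel beta subunits are single-pass proteins that bind the alpha subunit and also act as adhesion molecules. Scn2b, which pairs with alpha subunits by a disulfide bond, measured 231, 299 and 277 CPM in KO replicates 1 to 3 and 296, 317 and 275 CPM in WT replicates 1 to 3. KO replicate 1 was its lowest library and the groups overlapped (log2 fold change -0.14, 95% interval -0.34 to 0.05). The Scn2b log2 fold change was -0.038 without KO replicate 1 and -0.23 without KO replicate 2, where the limma-voom p, unadjusted, was 0.0359. Scn3b was at 135 ± 9.01 (KO) and 135 ± 1.27 CPM (WT). Scn4b, known for the resurgent sodium current, measured 51.0, 90.3 and 88.7 CPM in KO replicates 1 to 3 and 55.8, 82.4 and 95.0 CPM in WT replicates 1 to 3. The low Scn4b libraries were replicate 1 of each group, which are the libraries with Xist.

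Calcium channel alpha-1 subunits fall into the L-type (Cacna1c, Cacna1d, Cacna1f, Cacna1s), the presynaptic P/Q-type (Cacna1a), N-type (Cacna1b) and R-type (Cacna1e), and the low-voltage-activated T-type (Cacna1g, Cacna1h, Cacna1i). All but the T-type bind a cytoplasmic beta subunit through a stretch in the first intracellular loop called the alpha interaction domain. A script searched for it in the translated coding sequences and found it in 7 of the 10 alpha-1 genes and in none of the T-type genes, which are known to work without a beta subunit. No match says only that this pattern is not in the sequence searched. The 54 coding bases of the domain are shown for the 5 members of the high-voltage-activated kind with the highest levels, from GENCODE M21, with the codons of the amino acids that define the pattern in capitals:

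Cacna1a: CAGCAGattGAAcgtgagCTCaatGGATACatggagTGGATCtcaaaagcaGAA

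Cacna1b: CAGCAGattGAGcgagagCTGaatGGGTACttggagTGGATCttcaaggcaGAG

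Cacna1c: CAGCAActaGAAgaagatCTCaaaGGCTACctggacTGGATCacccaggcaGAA

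Cacna1d: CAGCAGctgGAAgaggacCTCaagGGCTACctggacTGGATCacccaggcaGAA

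Cacna1e: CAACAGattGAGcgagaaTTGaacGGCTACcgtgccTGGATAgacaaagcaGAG

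The L-type genes Cacna1c and Cacna1d are identical at 49 of these 54 bases, and the presynaptic genes Cacna1a and Cacna1b at 45 of 54. The KO level was the higher in 8 of the 10 alpha-1 genes and the lower in 2, beside 9899 and 9185 of the 19084 genes tested. Their median log2 fold change was 0.13, beside 0.01 over all genes tested. An unadjusted p under 0.05 in limma-voom was reached by 5 of the 10, all higher in KO, beside 4.38% of all genes tested. These 5 hold L-type and T-type members. L-type Cacna1f, T-type Cacna1g and the presynaptic Cacna1a, Cacna1b and Cacna1e did not reach it. The difference between these kinds was not tested. Cacna1e had a log2 fold change of 0.12, beside 0.15 for Cacna1i, which was among the 5.

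Cacna1c encodes Cav1.2, the main L-type channel of forebrain neurons, and had the lowest p of all channel genes. It lies at chr6:118564201-119173851 on the minus strand (ENSMUSG00000051331.17) and measured 196, 160 and 162 CPM in KO replicates 1 to 3 and 136, 123 and 148 CPM in WT replicates 1 to 3. Every KO library was above every WT library, with KO replicate 1 well above the rest. The log2 fold change was 0.35 (SE 0.09, limma-voom unadjusted p = 0.00256, adjusted p = 0.635), and without KO replicate 1 it was 0.25 with an unadjusted limma-voom p of 0.00915.

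Cacna1d encodes Cav1.3, the L-type channel that opens at lower voltage, at chr14:29761896-30213412 on the minus strand (ENSMUSG00000015968.19). Its level was 137, 124 and 127 CPM in KO replicates 1 to 3 and 108, 115 and 112 CPM in WT replicates 1 to 3. All KO libraries were higher, and the libraries of each group lay close together. The log2 fold change was 0.21 (SE 0.07, limma-voom unadjusted p = 0.00894, adjusted p = 0.635), and without KO replicate 1 it was 0.17 with an unadjusted limma-voom p of 0.0403. Cacna1s, the Cav1.1 of skeletal muscle at chr1:135980488-136047560 on the plus strand (ENSMUSG00000026407.18), had only 28, 15 and 13 fragments in KO replicates 1 to 3 and 10, 3 and 9 in WT replicates 1 to 3. Its log2 fold change of 1.31 (SE 0.49, limma-voom unadjusted p = 0.0196, adjusted p = 0.635) rests on these few fragments. It was 1.05 without KO replicate 1 and 0.84 without WT replicate 2, the library with 3 fragments. The limma-voom p, unadjusted, was then 0.0688 and 0.0981. Exons of Gm37759 lie opposite 20.0% of the Cacna1s exon bases, exons of other genes lie opposite 4.85% of those of Cacna1d and 1.62% of those of Cacna1h, and fragments were counted by strand. Cacna1f, the Cav1.4 of the retina, had 2 to 8 fragments per library.

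The T-type gene Cacna1h, which encodes Cav3.2, lies at chr17:25593259-25652757 on the minus strand (ENSMUSG00000024112.17). Its level was 142, 120 and 118 CPM in KO replicates 1 to 3 and 103, 108 and 101 CPM in WT replicates 1 to 3. Every KO library exceeded every WT library, and KO replicate 1 was again the highest. The log2 fold change was 0.28 (SE 0.08, limma-voom unadjusted p = 0.00409, adjusted p = 0.635), and without KO replicate 1 it was 0.20 with an unadjusted limma-voom p of 0.0190. Cacna1i, which encodes Cav3.3 and lies at chr15:80171439-80282480 on the plus strand (ENSMUSG00000022416.16), measured 128, 127 and 118 CPM in KO replicates 1 to 3 and 115, 107 and 114 CPM in WT replicates 1 to 3. The groups did not overlap, but the gap of 3.25 CPM between KO replicate 3 and WT replicate 1 was smaller than the SD of either group. Its log2 fold change was 0.15 (SE 0.07, limma-voom unadjusted p = 0.0421, adjusted p = 0.635). The third T-type gene, Cacna1g, which encodes Cav3.1 of thalamus and cerebellum, was at 197 ± 11.2 (KO) and 193 ± 32.8 CPM (WT). Cacna1c, Cacna1d and Cacna1h had an unadjusted p under 0.05 in all 15 alternative settings tried and an adjusted p under 0.05 in none, while Cacna1i had it in 9 of 15.

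**Figure D3:**
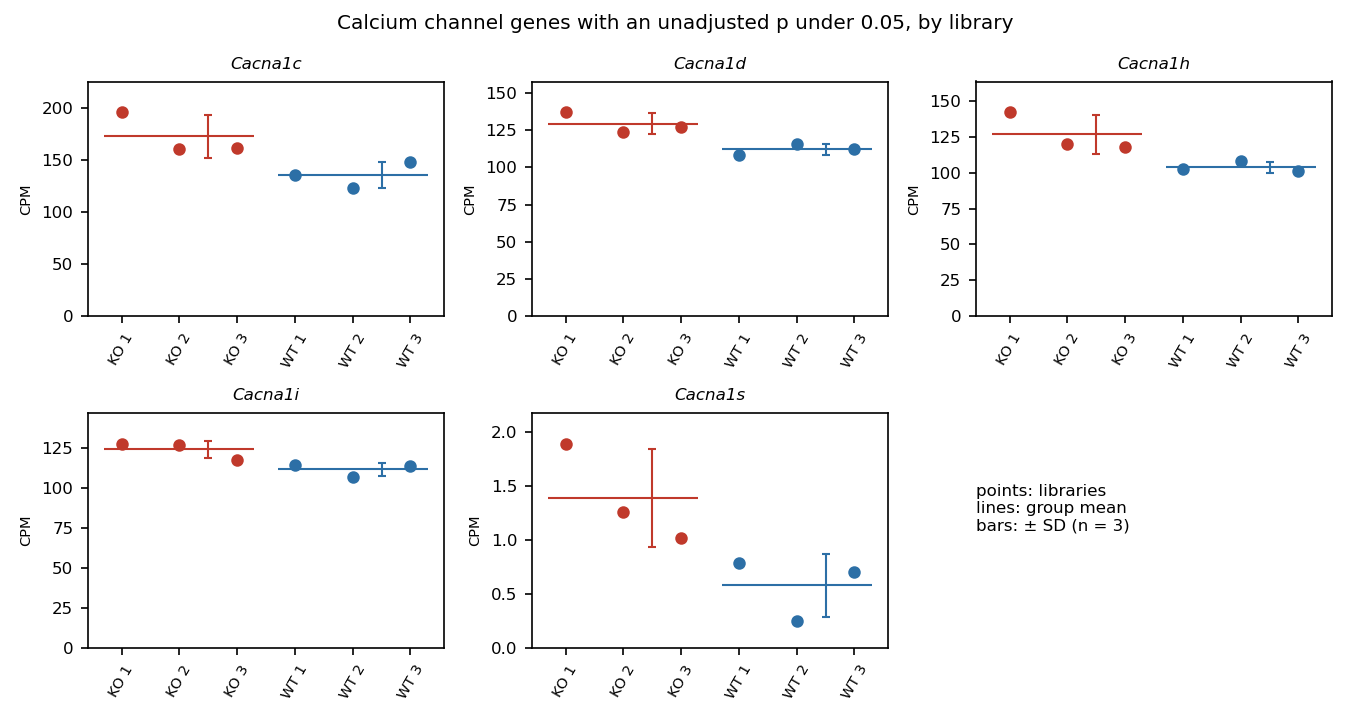
CPM of 5 calcium channel genes with an unadjusted p under 0.05 in each library (vertical axis from 0), with the group mean as a line and ± SD as a bar (n = 3). The KO points lie above the WT points in each of the 5 panels, and KO replicate 1 is the highest library in all of them.

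Among the presynaptic channels, Cacna1a had the highest level per length of all alpha-1 genes. It measured 262, 271 and 283 CPM in KO replicates 1 to 3 and 270, 271 and 267 CPM in WT replicates 1 to 3. These values overlapped closely, and the log2 fold change was 0.02 with a 95% interval of -0.11 to 0.15. Cacna1b was at 187 ± 7.03 (KO) and 193 ± 2.48 CPM (WT). Cacna1e, which gives the R-type current of dendrites and terminals, was at 497 ± 22.5 and 458 ± 32.2 CPM, with a log2 fold change of 0.12 and a 95% interval of -0.03 to 0.27.

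The summed level of the alpha-1 class was 125, 121 and 121 CPM per kb in KO replicates 1 to 3 and 116, 114 and 112 CPM per kb in WT replicates 1 to 3. No KO library was below a WT library, and the difference of the mean log2 sums was 0.10. The exact permutation p, two-sided, was 0.1, the smallest that 3 against 3 allows, and 0.6 after adjustment over 6 classes. L-type genes together were at 16.7 ± 1.46 CPM per kb in KO and 13.7 ± 0.546 in WT, and T-type genes at 45.0 ± 2.66 and 41.1 ± 3.36. The P/Q-type was at 22.1 ± 0.858 and 21.9 ± 0.160 CPM per kb, the N-type at 18.8 ± 0.708 and 19.4 ± 0.250, and the R-type at 19.7 ± 0.893 and 18.2 ± 1.28. This grouping by current was made after the values were seen and was not tested.

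Alpha-2-delta subunits sit outside the membrane and carry channels to the presynaptic terminal, and the products of Cacna2d1 and Cacna2d2 bind the gabapentinoid drugs. Cacna2d1, the highest of the 4 per length, measured 337, 357 and 318 CPM in KO replicates 1 to 3 and 317, 325 and 338 CPM in WT replicates 1 to 3. The groups overlapped, and the log2 fold change was 0.05 with a 95% interval of -0.09 to 0.18. Cacna2d2 was at 47.5 ± 1.83 (KO) and 44.8 ± 2.16 CPM (WT), Cacna2d3 at 66.8 ± 8.73 and 68.1 ± 1.35 CPM, and the low Cacna2d4 at 2.13 ± 0.119 and 1.85 ± 0.404 CPM. None of them had an unadjusted p under 0.05, and the summed level of the class was 41.0 ± 1.68 (KO) and 39.9 ± 1.04 CPM per kb (WT).

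Calcium channel beta subunits are the cytoplasmic partners that bind the domain shown above. Cacnb3 led the class per length and measured 277, 292 and 285 CPM in KO replicates 1 to 3 and 268, 285 and 293 CPM in WT replicates 1 to 3. These groups overlapped (log2 fold change 0.01, 95% interval -0.12 to 0.15). Cacnb1 was at 164 ± 8.43 (KO) and 172 ± 14.3 CPM (WT), Cacnb4 at 272 ± 2.91 and 283 ± 12.4 CPM, and Cacnb2 at 55.2 ± 5.25 and 50.9 ± 3.16 CPM. The KO mean was the higher in 2 of the 4 genes, and none had an unadjusted p under 0.05. The summed level of the class was 142 ± 3.25 CPM per kb in KO and 144 ± 5.02 in WT, so the alpha-1 sum was higher in KO beside a beta sum that overlapped.

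HCN channels keep the selectivity filter of potassium channels in an altered form, in which a cysteine takes the place of the usual first threonine. The pore bases of the main HCN gene are shown, 42 bases from the same annotation, with the codons of the filter in capitals:

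Hcn2: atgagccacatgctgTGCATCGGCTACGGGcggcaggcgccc

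The filter was found once in each of the 4 HCN genes. Hcn2 measured 130, 140 and 128 CPM in KO replicates 1 to 3 and 144, 132 and 125 CPM in WT replicates 1 to 3. The groups overlapped, with a log2 fold change of -0.01 (95% interval -0.17 to 0.15). Hcn3 was at 23.2 ± 2.12 (KO) and 21.9 ± 4.28 CPM (WT). Hcn4, the pacemaker isoform of the heart and thalamus, measured 16.5, 9.63 and 8.67 CPM in KO replicates 1 to 3 and 11.8, 5.89 and 9.81 CPM in WT replicates 1 to 3. KO replicate 1 was the highest Hcn4 library and the groups overlapped, and none of the HCN genes had an unadjusted p under 0.05. With a Y-linked covariate, the Hcn4 log2 fold change was 0.35 and its limma-voom p, unadjusted, was 0.0484, beside 0.36 and 0.212 without it, and without KO replicate 1 the log2 fold change was 0.042. The HCN sum was 54.0 ± 1.55 CPM per kb in KO and 54.0 ± 4.62 in WT.

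Subunit proportions were taken as each gene's share of its class in CPM per kb, which does not depend on the scaling between libraries. Scn2a made up 36.5% ± 0.357 of the alpha message in KO and 37.9% ± 0.476 in WT, Scn8a 35.8% ± 1.37 and 36.2% ± 0.886, Scn1a 17.7% ± 0.0464 and 17.0% ± 0.991, Scn3a 6.88% ± 0.877 and 6.20% ± 0.547, and Scn7a 1.90% ± 0.493 and 1.81% ± 0.723. Every KO library had a lower Scn2a share than every WT library. Scn2b held 23.0% ± 1.38 of the sodium channel beta message in KO and 22.3% ± 0.496 in WT. Scn3b held 9.99% ± 1.69 and 8.72% ± 0.553, and Scn4b held 6.06% ± 1.28 and 5.54% ± 1.66. The summed level was 76.1 ± 6.02 CPM per kb in KO and 77.8 ± 5.38 in WT for the sodium channel alpha genes, with a two-sided exact permutation p of 0.5.

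Among the calcium channel alpha-1 genes the message per length was spread over many subunits, and the highest share in any library was 19.3%. Without division by exon length Cacna1e led in every library, with 29.1% ± 1.58 in KO and 29.0% ± 2.01 in WT. Cacna1b held 15.4% ± 0.809 in KO and 17.0% ± 0.0930 in WT, and every KO library was below every WT library. The shares of Cacna1c (6.45% ± 0.652 and 5.44% ± 0.570), Cacna1d (6.96% ± 0.266 and 6.46% ± 0.288) and Cacna1h (10.6% ± 0.954 and 9.32% ± 0.332) were higher in every KO library. The Cacna1c groups nearly met, at 6.050% in KO replicate 2 and 6.046% in WT replicate 3. Without KO replicate 1 the Cacna1c share differed by 0.636 percentage points, beside 1.01 with all libraries. The Cacna1h share then differed by 0.728, beside 1.28. Without division by exon length the Cacna1d shares were 7.57% ± 0.331 and 7.10% ± 0.224 and the groups overlapped (two-sided exact permutation p = 0.2), while those of Cacna1c and Cacna1h did not overlap. The shares of Cacna1a (16.0% ± 0.775 and 17.1% ± 0.126) and of Cacnb4 in its class (35.1% ± 0.428 and 35.9% ± 0.355) were then lower in every KO library, and overlapped when divided by length. Cacna1a held 18.1% ± 0.940 and 19.1% ± 0.253, Cacna1e 16.1% ± 0.959 and 15.9% ± 1.39, Cacna1g 15.9% ± 0.691 and 16.7% ± 2.53, and Cacna1i 10.3% ± 0.394 and 9.93% ± 0.407. Cacna2d1 held 66.2% ± 2.41 of the alpha-2-delta message in KO and 65.8% ± 0.415 in WT, and Cacna2d2 held 14.6% ± 0.0418 and 14.1% ± 0.314, higher in every KO library. Cacnb3 made up 50.1% ± 0.370 and 48.9% ± 1.65 of the beta class, and Hcn2 made up 77.0% ± 1.91 and 77.7% ± 1.38 of the HCN class. Cacna2d3 held 18.7% ± 2.44 and 19.6% ± 0.798. Cacnb1 held 25.5% ± 0.808 and 26.4% ± 1.99 of the beta class, Cacnb4 21.4% ± 0.413 and 22.0% ± 0.280, and Cacnb2 2.95% ± 0.349 and 2.68% ± 0.131. Of the HCN message Hcn3 held 9.32% to 11.3% in KO libraries and 8.92% to 10.9% in WT libraries, and Hcn4 3.51% ± 1.27 and 2.76% ± 0.800. The 8 genes with a mean share under 1% were not tested. Over the 28 shares tested, the exact permutation p, two-sided, was 0.1 for Scn2a, Cacna1b, Cacna1c, Cacna1d, Cacna1h and Cacna2d2, the smallest the design allows, and 0.467 for each after adjustment over the 28.

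**Figure D4:**
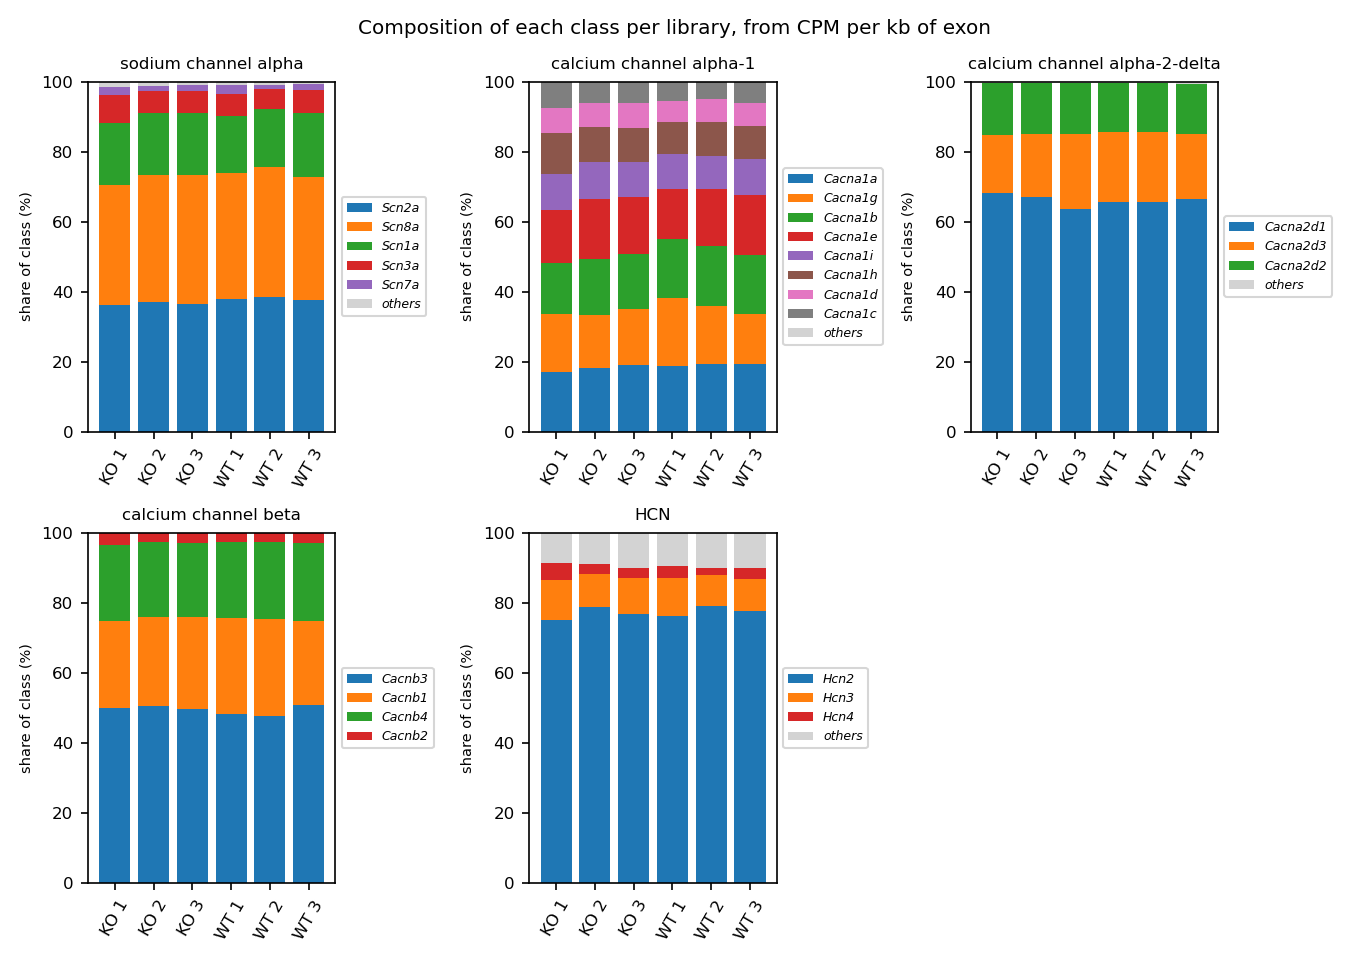
Share of each gene in the summed CPM per kb of its class (vertical axis, %), as stacked bars per library for 5 classes, with genes under 1% on average or not given in the text pooled as others. The bars of KO and WT look alike. On this scale Scn2a and Scn8a, Cacna2d1, Cacnb3 and Hcn2 lead their classes in both groups, with no single leader among the alpha-1 genes.

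Ratios were taken between subunits that trade places during neuronal maturation or define the main current of a class, with p-values adjusted over 7 of them. The groups did not overlap for Cacna1a, which was at 1.17 ± 0.0363 times the level of Cacna1b per length in KO and 1.13 ± 0.00897 times in WT, with a two-sided exact permutation p of 0.1 and an adjusted p of 0.467. They nearly met, at 1.135 in KO replicate 2 and 1.133 in WT replicate 3. Scn8a to Scn2a was 0.978 ± 0.0339 and 0.954 ± 0.0131, and Scn3a to Scn2a was 0.188 ± 0.0253 and 0.164 ± 0.0164. Cacna1c to Cacna1d was 0.925 ± 0.0599 and 0.843 ± 0.0925, and Cacna1g to Cacna1i was 1.55 ± 0.106 and 1.69 ± 0.283. Cacnb4 to Cacnb3 was 0.428 ± 0.00793 and 0.449 ± 0.0117. The groups overlapped in each of these other 5 ratios, and their exact permutation p, two-sided, was 0.2 or more.

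Proteins of the axon initial segment anchor sodium channels through ankyrin G and beta IV spectrin. KO was the higher in 7 of 12 such genes and the lower in 5, with a median log2 fold change of 0.00, and 0 had an unadjusted limma-voom p under 0.05. The lowest p among those higher were Ank3 (ankyrin G, log2 fold change 0.12) and Sptbn4 (beta IV spectrin, 0.05), and among those lower Cntn1 (contactin, -0.15) and Mapre3 (a microtubule end-binding protein, -0.13). A second list of 37 genes, of which 36 were found by symbol, held proteins that bind or regulate the channels, such as calmodulins, FGF homologous factors, Stac adaptors and the Cacng family. KO was the higher in 15 of its 35 tested genes and the lower in 20, with a median of -0.03, and 2 higher and 4 lower had an unadjusted limma-voom p under 0.05, beside 4.38% and 3.44% of all genes tested. Cacng3, a partner of AMPA receptors, was at 104 ± 7.46 (KO) and 128 ± 7.94 CPM (WT) (limma-voom unadjusted p = 0.00165, adjusted p = 0.635). Calm3, a calmodulin gene, was at 1182 ± 54.0 and 1346 ± 80.3 CPM. Stac was at 1.51 ± 0.362 and 0.639 ± 0.282 CPM. Cacng5 stood out in KO replicate 1 with 46.0 CPM, beside 5.89 to 17.2 CPM in the others.

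Markers of other regions and cell types also differed between the libraries. All 6 olfactory bulb markers were higher in KO on average, with sums of 221, 52.4 and 29.3 CPM in KO replicates 1 to 3 and 55.3, 12.5 and 30.9 CPM in WT replicates 1 to 3, and Eomes and Ms4a15 were at 0 in WT replicate 2. Of 5 thalamic markers 3 were higher in KO, with a sum of 197 CPM in KO replicate 1 and 98.2 to 114 CPM elsewhere, and Calb2 made up 103 CPM of the 197. Calb2 was at 10.2 to 29.7 CPM in the other libraries. Another thalamic marker, Prkcd, was at 10.7 to 12.7 CPM in KO and 8.35 to 9.25 CPM in WT (limma-voom unadjusted p = 0.00824, adjusted p = 0.635). The remaining thalamic markers were Tcf7l2 (log2 fold change 0.17), Rora (-0.04) and Slc17a6 (-0.01), none at an unadjusted limma-voom p under 0.05. KO replicate 1 was the highest library for the olfactory bulb and thalamic sums and for Cacna1c, Cacna1d, Cacna1h, Cacna1i, Cacna1s and Hcn4. It was also the highest for Scn3a, Scn3b, Cacnb2 and Cacna1f, none of them at an unadjusted limma-voom p under 0.05. All 10 striatal markers were higher in KO on average, with sums of 359 to 467 CPM in KO and 263 to 447 CPM in WT, and all 6 oligodendrocyte markers were too, with sums of 2179 to 2525 and 1694 to 2803 CPM. All 6 astrocyte markers had the higher mean log2 level in KO, with none at an unadjusted p under 0.05 and sums of 4079 to 4475 CPM in KO and 3830 to 4477 CPM in WT. Of 6 neuronal markers 5 were lower in KO. The sum of the 6 was 6675 to 7063 CPM in KO and 7097 to 7963 CPM in WT, so the groups nearly met without overlap. Their median log2 fold change was -0.13, with Map2 at 0.01 and Rbfox3 at -0.01. Only 1 of them, Snap25, had an unadjusted limma-voom p under 0.05. Of 5 markers of parvalbumin interneurons, the cells known for Scn1a, 4 were lower in KO, with sums of 352 to 367 CPM in KO and 364 to 383 CPM in WT. Among them were Pvalb, with a log2 fold change of -0.23 (limma-voom unadjusted p = 0.0357, adjusted p = 0.635), and Syt2, with -0.40 (limma-voom unadjusted p = 0.0253, adjusted p = 0.635). Of 6 interneuron markers 3 were lower in KO and 3 higher. The sum of the 6 was 638 to 1019 CPM in KO and 619 to 831 CPM in WT. Higher were Gad1 (log2 fold change 0.33), Gad2 (0.10) and Slc32a1 (0.05), none at an unadjusted limma-voom p under 0.05. Gad1 stood at 581 CPM in KO replicate 1 and at 238 to 363 CPM in the other libraries. Among the lower ones, Sst (somatostatin) was at 80.4 to 95.3 CPM in KO and 117 to 142 CPM in WT. For Sst the log2 fold change was -0.50 (limma-voom unadjusted p = 0.000114, adjusted p = 0.635). Lhx6 (-0.33, limma-voom unadjusted p = 0.0104) and Vip (-0.15, limma-voom unadjusted p = 0.147) were the other lower markers. The part of these markers in the values of the channel genes was not tested. The differences of Cacna1c, Cacna1d and Cacna1h kept an unadjusted p under 0.05 without KO replicate 1. Without that library, and so with fewer samples, Cacna1i had a log2 fold change of 0.13 beside 0.15 with all libraries, and Cacna1s had 1.05 beside 1.31. The limma-voom p, unadjusted, was then 0.111 and 0.0688.

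**Figure D5:**
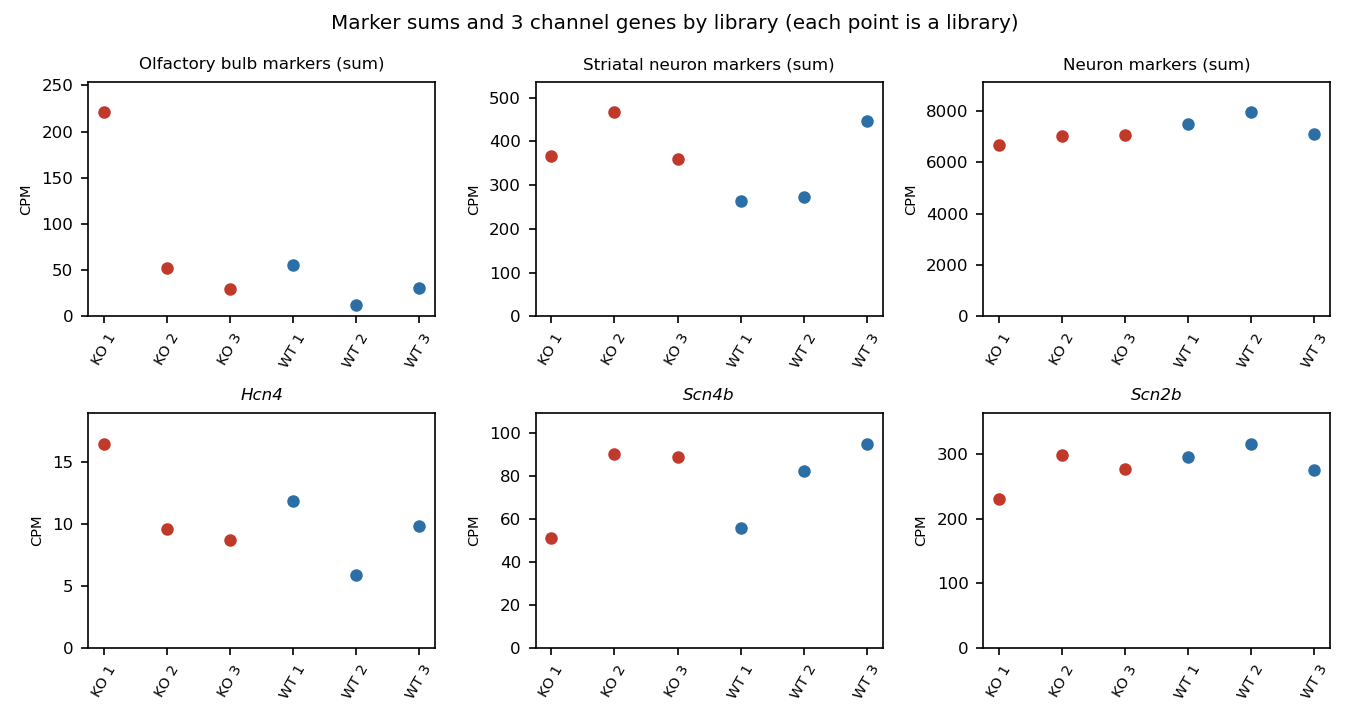
Summed CPM of olfactory bulb, striatal and neuronal markers (top) and CPM of Hcn4, Scn4b and Scn2b (bottom) in each library, on vertical axes from 0. KO replicate 1 stands at 221 CPM in the olfactory bulb sum and is the highest Hcn4 library, while Scn4b is low in replicate 1 of both groups.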

How the data were processed

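Polyadenylated RNA was sequenced from 6 stranded libraries, grouped by the sample titles. The authors deposited raw counts of fragments per gene, 1 table per library. Per the file headers, featureCounts 1.6.0 counted read pairs over exons of GENCODE M31 (GRCm39) with strand option 2, leaving out fragments with several mapping places or several overlapping genes. The submitters' processing notes name STAR 2.7.9a, and the paper's methods name another build. Symbols came from GENCODE M21 by gene ID and matched 52073 of 56923 genes.

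Genes with at least 6 fragments in at least 1 library (19084) were scaled by TMM in edgeR 4.0.16 and tested, KO against WT, with voom and limma 3.58.1 in R 4.3.3, two-sided, Benjamini-Hochberg adjusted over these genes. Shares, ratios and sums were compared by exact permutation over libraries. Every channel gene was named except a few that are not reported here, and values per library were given for those with an unadjusted p under 0.05 or no overlap of the groups and for the highest per length reported in each class; Hcn4 and Scn4b were added after their values were seen. From each partner list, the 2 genes of lowest p in each direction were named. Members and lists were chosen with earlier results of these data known. No pair of libraries agreed within sampling noise. Alternatives were edgeR's quasi-likelihood test, DESeq2 1.42.0, other scaling, filters and weights, a replicate block, a Y-linked covariate and leaving out each library.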

Additional observations from a re-analysis of the deposited data

How the results depend on the processing

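The adjusted count of channel genes was 0 under every alternative run, although among all genes DESeq2 called 1, the Y-linked covariate 23 and the fit without WT replicate 2 called 1. Leaving out each library in turn gave 3 to 7 channel genes at an unadjusted p under 0.05, 3 to 6 of them higher and 0 to 2 lower, with the lowest count of 3 without KO replicate 1. Over all genes tested the same refits gave 4.13% to 11.8%, with 2.29% to 5.43% higher and 1.70% to 6.4% lower, the top of each range without WT replicate 3. Deviations of same-numbered libraries correlated at 0.267, 0.0591 and -0.0199 across genes, and those of differently numbered libraries at -0.198 to 0.167. The highest value was that of KO replicate 1 with WT replicate 1. The labels do not say whether replicate numbers pair the samples, and with 3 libraries a group these correlations cannot decide it. With the replicate block 6 channel genes had an unadjusted p under 0.05 (1693 of all genes), and Cacna1i was the gene lost. The Cacna1i log2 fold change was 0.15 in both fits, with an unadjusted limma-voom p of 0.0565 with the block and 0.0421 without it. The count was 8 with the Y-linked covariate (10.6% of all genes), with Hcn4 added, and 8 with no filter beyond 1 fragment (7.06%), with Cacna1e added. Low counts limit Cacna1s, Cacna1f, Scn10a, Scn4a and Scn11a, and 3 libraries a group limit every exact p to 0.1.

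Values near 0 turned sign, and the cause was not tested. Library totals without TMM gave 0.014 for the log2 fold change of Hcn2 and 0.0033 for the summed level of calcium channel beta genes. Quality weights gave log2 fold changes of 0.0050 for Cacna2d3, -0.019 for Scn3b and 0.034 for Scn4b. Scn3b was -0.0021 under DESeq2, -0.0037 under RLE and -0.0023 under filterByExpr, and RLE gave an axon initial segment median of -0.0015. Without division by length the Hcn2 share differed by 0.397 percentage points and the HCN sum by -0.021 on the log2 scale.

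Leaving out each library gave log2 fold changes of -0.063 to 0.045 for Hcn2, -0.013 to 0.044 for Cacna1a, -0.59 to 0.23 for Cacna1f, -0.093 to 0.16 for Cacna1g, -0.13 to 0.066 for Cacna2d3 and -0.025 to 0.037 for Cacnb3. With 1 sign throughout, they were -0.15 to -0.013 for Scn2a, -0.23 to -0.038 for Scn2b, 0.00021 to 0.087 for Cacna2d1 and 0.060 to 0.16 for Cacna1e. Calls gained were Scn2b without KO replicate 2, Scn3a without WT replicate 3 (0.19 beside 0.11) and Hcn3 without WT replicate 1 (0.26 beside 0.10), at an unadjusted p under 0.05. The values that turned sign were also -0.19 to 0.47 for Scn10a, -0.073 to 0.094 for Scn1a, -0.12 to 0.33 for Scn7a, -0.11 to 0.050 for Scn8a, -0.011 to 0.28 for Scn9a, -0.053 to 0.031 for Scn3b and -0.26 to 0.24 for Scn4b. The axon initial segment median ranged from -0.018 to 0.047, that of all channel genes from 0.024 without WT replicate 2 to 0.091 without KO replicate 3, and that of the channel partners from -0.057 without WT replicate 1 to -0.010 without WT replicate 2. Shares, KO minus WT in percentage points, ranged from -1.68 to 0.232 for Hcn2, -0.567 to 0.805 for Cacna1e, -2.09 to 0.441 for Cacna1g, -0.618 to 1.72 for Cacna2d1, -2.24 to 0.134 for Cacna2d3, -0.202 to 0.492 for Scn7a, -0.936 to 0.371 for Scn8a, -0.100 to 1.11 for Scn2b and -0.309 to 1.35 for Scn4b. Log2 differences of summed levels ranged from -0.045 to 0.071 for HCN, -0.047 to 0.0028 for calcium channel beta and -0.092 to 0.034 for sodium channel alpha genes.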
